A study of Mus musculus with 11 samples.

Results

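Dusp1, Dusp2, Dusp4, Dusp5, Dusp6, Dusp7, Dusp10, Spry1, Spry2 and Spred1, 10 genes that encode inhibitors of mitogen-activated protein kinase (MAPK) signalling, were followed over 11 mouse RNA-seq libraries. They were picked by name as members of the family, though with earlier results of these data known, and all 10 were found among the 57186 gene entries of the deposited count table. The libraries came from thymic DN3 cells, immature thymocytes that are rearranging the T cell receptor beta gene (n = 3), from ZsGreen-positive lung group 2 innate lymphoid cells (ILC2, n = 3) and from ZsGreen-negative lung ILC2 (n = 5). ILC2 are tissue lymphocytes that release type 2 cytokines and show no antigen receptor at the cell surface. All cells were sorted from untreated 14-day-old mice of the genotype Cd3giCreRosa26stopZsGreen, so each group carries the same Cre allele and the same ZsGreen reporter, which is switched on for good in a cell, and in its progeny, once Cre has been active there. The name of the Cre allele points to the locus of Cd3g, a subunit of the T cell receptor complex. The comparison of the lung groups therefore sets ILC2 with a history of reporter activation against ILC2 without it, and DN3 cells stand for an early T lineage stage.

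MAPK cascades pass signals from receptors at the cell surface to the nucleus through the kinases ERK, JNK and p38, and many of their inhibitors are themselves switched on by the cascade, which closes a negative feedback loop. The dual-specificity phosphatases (DUSP) remove the activating phosphates from MAPKs, some in the nucleus and some in the cytoplasm. Sprouty and SPRED proteins act further up, between the receptor and Raf, and ILC2 engage these cascades when alarmins such as IL-33 reach them.

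The promoters of Dusp1 and Dusp5, the members of highest lung level, carry known response elements and are shown for that reason. The sequences are the 250 bases before the RefSeq transcription start, 5′ to 3′ on the gene's own strand, in the build GRCm38.p6. Dusp1 lies on the minus strand at chr17:26508473-26508722, and Dusp5 on the plus strand at chr19:53528895-53529144. Capitals mark, in Dusp1, the cAMP response element TGACGTCA, bound by CREB family factors, and a further copy of its core TGACG. In Dusp5 they mark a pair of adjoining CArG boxes, the site bound by serum response factor, and the core on the other strand (CGTCA).
Dusp1: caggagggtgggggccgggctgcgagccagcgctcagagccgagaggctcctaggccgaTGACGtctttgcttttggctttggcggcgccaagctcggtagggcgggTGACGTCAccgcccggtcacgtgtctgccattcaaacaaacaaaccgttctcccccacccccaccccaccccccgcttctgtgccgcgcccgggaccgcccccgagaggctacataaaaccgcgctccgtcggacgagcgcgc
Dusp5: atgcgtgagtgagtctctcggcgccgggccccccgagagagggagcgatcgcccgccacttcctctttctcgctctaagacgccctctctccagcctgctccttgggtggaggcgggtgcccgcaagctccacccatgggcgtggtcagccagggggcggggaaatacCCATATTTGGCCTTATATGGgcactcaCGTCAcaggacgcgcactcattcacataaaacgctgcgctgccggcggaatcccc
Promoters were at hand for 9 of the 10 members (not for Dusp4), and both strands were searched in each. The full cAMP response element lay 143 to 136 bases before the start of Dusp1 and was in 1.55% of 32851 mouse promoters of this length. The CArG boxes lay 82 to 73 and 72 to 63 bases before the start of Dusp5, and at least 1 CArG box was in 1.47% of promoters. The core TGACG, which the full element contains, was in 17.8% of promoters and, of the 9 members, in Dusp1 and Dusp5. The E-box CACGTG was in 6.02% of promoters and in those of Dusp1 and Dusp2, and the CCAAT box in 33.8% and in those of Dusp6, Dusp7, Dusp10 and Spry1. Sites for AP-1 (TGANTCA), STAT (TTCNNNGAA) and ETS factors (CCGGAAGT) were searched as well. They were in 6.75%, 7.02% and 2.88% of promoters and in none of the 9 members. A match of letters is a description of the window and no measure of binding.

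Library totals ran from 5951494 to 7745062 counts in DN3, from 5762491 to 17627469 in ZsGreen-positive ILC2 and from 4495260 to 14424313 in ZsGreen-negative ILC2, so 1 count was worth 0.0567 to 0.222 CPM, the count scaled to the library total. Levels are CPM after TMM scaling over the 11 libraries. Cd3g lay between 410 and 432 CPM in DN3, between 135 and 168 CPM in ZsGreen-positive ILC2 and between 29.6 and 40.3 CPM in ZsGreen-negative ILC2, in the order of the labels. DN3 libraries had no count of the ILC2 markers Il1rl1, Areg, Il13, Ccr8 and Klrg1, and no lung library had a count of the DN3 markers Ptcra and Rag2. Of 15 ILC2 markers, 14 were lower in DN3 than in either lung group, but Il2ra was higher than in ZsGreen-positive ILC2 (means of 1106 and 818 CPM). Of 15 DN3 markers, 13 were higher and 2 lower in DN3 than in either lung group. Their sum was 7694 to 7850 CPM in DN3, 778 to 817 CPM in ZsGreen-positive and 878 to 944 CPM in ZsGreen-negative ILC2. The sum hides differences in both directions between the lung groups, where 10 of the DN3 markers were tested. Of these, 2 were higher in ZsGreen-positive ILC2 (Cd3e and Cd3d) and 3 lower (Lef1, Hes1 and Ets2). Of the 15 ILC2 markers, 2 were higher in ZsGreen-positive ILC2 (Klrg1 and Il13) and 2 lower (Icos and Calca). A list of 36 markers of lung structural cells summed to 1509 to 3313 CPM in ZsGreen-positive ILC2 and 698 to 1646 CPM in ZsGreen-negative ILC2, with ranges that meet. Of its 34 genes tested 5 were higher in ZsGreen-positive ILC2 (median log2 fold change of the list 1.21), and the same list summed to 221 to 253 CPM in DN3. Mast cell and neutrophil markers summed to 661 to 799 CPM in ZsGreen-positive and 834 to 996 CPM in ZsGreen-negative ILC2, and 1 of 4 tested was lower. Higher in ZsGreen-positive ILC2 were 2 of 8 T cell, 1 of 5 B cell and 0 of 8 macrophage and dendritic cell markers tested, where 2.32% of all genes tested were higher. Batch dates were shared by the lung groups (2 September 2024, and 8 April 2025 for 1 library of each), but all DN3 libraries had a date of their own, 17 October 2024. Tissue and date of batch cannot be told apart wherever DN3 enter.

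The 10 members together took 0.0266% ± 0.000796 of all counts in DN3, 0.236% ± 0.0113 in ZsGreen-positive ILC2 and 0.259% ± 0.00350 in ZsGreen-negative ILC2 (SD, n = 3, 3 and 5). Which members carried that share differed between the tissues. Per kilobase of exon, Dusp5 and Dusp1 led in the lung, at 325 and 201.2 CPM per kb in ZsGreen-positive ILC2 and 374 and 241 CPM per kb in ZsGreen-negative ILC2, followed by Spry2 (101 and 153) and Spry1 (100.4 and 95.1). In ZsGreen-positive ILC2 the levels of the 2 Sprouty genes per kb thus lay next to each other, while in ZsGreen-negative ILC2 Spry2 led. Dusp2, Dusp7 and Spred1 were the lowest members in the lung, with 3.58 to 9.25 CPM per kb in the group means. In DN3 the order was another: Dusp2 led at 23.8 CPM per kb, before Dusp10 (14.0) and Dusp5 (12.1), and Dusp6 (1.23) and Spry2 (1.19) came last.

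**Figure D1:**
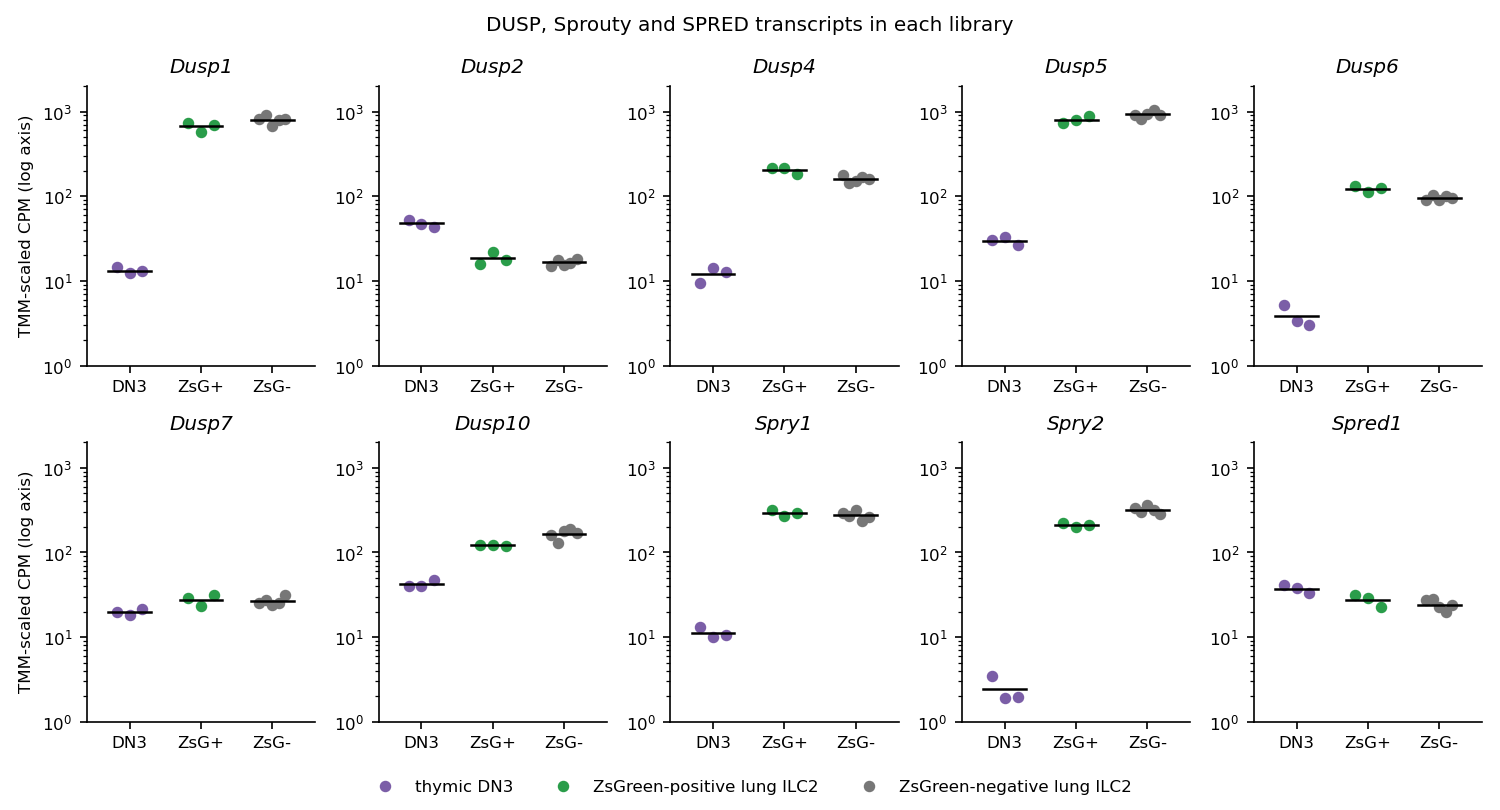
Level of each member in each of the 11 libraries, as TMM-scaled CPM on a log axis, for DN3 (n = 3), ZsGreen-positive lung ILC2 (n = 3) and ZsGreen-negative lung ILC2 (n = 5); points are libraries and bars are group means. Dusp1, Dusp4, Dusp5, Dusp6, Spry1 and Spry2 lie far below the lung libraries in DN3, while Dusp2 and Spred1 lie above them.

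In the comparison of the lung groups, ZsGreen-positive ILC2 had higher Dusp4 and Dusp6 and lower Dusp10 and Spry2 than ZsGreen-negative ILC2. These 4 of the 10 members passed the test (2 higher and 2 lower), where 4.60% of the 13771 genes tested passed it, 2.32% higher and 2.29% lower. The groups did not overlap for the same 4 members, against 10.2% of all genes tested. The members' median log2 fold change was 0.04, beside -0.01 over all genes. The test was edgeR's quasi-likelihood test with batch as a term and Benjamini-Hochberg (BH) adjustment over all genes tested, with a threshold of 0.05. Since these are bulk libraries, fewer cells of a type and less RNA per cell cannot be told apart.

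Spry2, an inducible inhibitor of Ras-ERK signalling downstream of receptor tyrosine kinases, showed the largest of these differences. It had 221, 200.3 and 212 CPM in ZsGreen-positive ILC2, against 334, 301, 364, 318 and 284 CPM in ZsGreen-negative ILC2. Every ZsGreen-positive library lay below every ZsGreen-negative library. The difference was a 1.49-fold lower level (log2 fold change -0.58 ± 0.09 SE, edgeR BH-adjusted p = 0.000665). Spry2 passed the test in all 18 alternative analyses, with log2 fold changes between -0.75 and -0.52 and adjusted p between 5.54e-08 and 0.0125. Within the libraries of September 2024 its log2 fold change was -0.64 ± 0.10 SE (edgeR BH-adjusted p = 0.00164), and the single pair of April 2025 gave a log2 ratio of -0.43.

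Its paralogue Spry1, whose protein acts at the same level of the cascade, did not pass the test. Spry1 had 314, 268 and 294 CPM in ZsGreen-positive ILC2, against 294, 267, 319, 237 and 266 CPM in ZsGreen-negative ILC2. The groups overlapped throughout. Its log2 fold change was 0.08 ± 0.10 SE with a 95% interval of -0.11 to 0.27 (edgeR BH-adjusted p = 0.767). The intervals here and below take a normal approximation from the SE and are somewhat narrower than the edgeR test implies. The balance of the 2 Sprouty transcripts within a library, a ratio chosen after the values were seen and free of library scaling, was 1.42, 1.34 and 1.38 Spry1 reads per Spry2 read in ZsGreen-positive ILC2, against 0.880, 0.888, 0.877, 0.746 and 0.937 in ZsGreen-negative ILC2. The ZsGreen-positive libraries all lay above the ZsGreen-negative ones. The side of 1 on which a read ratio falls depends on transcript length: per kb the group means of Spry1 and Spry2 were 100.4 and 101 CPM in ZsGreen-positive ILC2, and 95.1 and 153 CPM in ZsGreen-negative ILC2.

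Dusp10 encodes a phosphatase that acts on p38 and JNK rather than ERK. It had 122, 121 and 121 CPM in ZsGreen-positive ILC2, against 160.4, 129, 178, 188 and 171 CPM in ZsGreen-negative ILC2. The 3 ZsGreen-positive libraries were nearly equal and lay below all the ZsGreen-negative libraries, of which library 2 came closest. Dusp10 was 1.37-fold lower (log2 fold change -0.45 ± 0.10 SE, edgeR BH-adjusted p = 0.0158). Leaving out ZsGreen-positive library 1 or 2 ended the call (edgeR BH-adjusted p = 0.0705 and 0.0725). So did leaving out ZsGreen-negative library 5 or ZsGreen-positive library 3 (0.10 and 0.0902). These are the only libraries of April 2025, so with batch as a term either fit rests on the September 2024 libraries alone. Over 18 alternatives the log2 fold change stayed between -0.52 and -0.35, with adjusted p between 0.000147 and 0.372. In September 2024 alone it was -0.43 ± 0.12 SE (edgeR BH-adjusted p = 0.0949), and the April 2025 pair gave -0.52.

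Dusp4, a nuclear phosphatase of ERK and JNK that is itself induced by ERK, had 217, 218 and 185 CPM in ZsGreen-positive ILC2, against 180.0, 141, 151, 171 and 159 CPM in ZsGreen-negative ILC2. The groups did not overlap, with ZsGreen-positive library 3 and ZsGreen-negative library 1 close to each other. Dusp4 was 1.29-fold higher (log2 fold change 0.37 ± 0.09 SE, edgeR BH-adjusted p = 0.0199). Leaving out ZsGreen-positive library 1 or 2 ended the call (edgeR BH-adjusted p = 0.0983 and 0.103). Over 18 alternatives its log2 fold change lay between 0.33 and 0.48 and its adjusted p between 0.00278 and 0.236. In September 2024 alone it was 0.44 ± 0.10 SE (edgeR BH-adjusted p = 0.0251), and the April 2025 pair gave 0.20.

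Dusp6, the cytoplasmic phosphatase that is selective for ERK and a common readout of its activity, had 132, 112 and 125 CPM in ZsGreen-positive ILC2, against 90.4, 104, 89.8, 100.004 and 94.3 CPM in ZsGreen-negative ILC2. Every ZsGreen-positive library lay above every ZsGreen-negative library. Dusp6 was 1.28-fold higher (log2 fold change 0.36 ± 0.09 SE, edgeR BH-adjusted p = 0.0205). Leaving out ZsGreen-negative library 1 or ZsGreen-positive library 1 ended the call (edgeR BH-adjusted p = 0.0536 and 0.143). So did leaving out ZsGreen-negative library 5 or ZsGreen-positive library 3 (0.101 and 0.104), where again only September 2024 informs the fit. Over 18 alternatives its log2 fold change lay between 0.30 and 0.48 and its adjusted p between 0.0081 and 0.224. In September 2024 alone it was 0.35 ± 0.10 SE (edgeR BH-adjusted p = 0.107), and the April 2025 pair gave 0.39.

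When the mean level of the 34 tested structural cell markers was added to the model as a further term, Spry2 kept its call, and Dusp4, Dusp6 and Dusp10 did not (edgeR BH-adjusted p = 0.236, 0.224 and 0.372). Their log2 fold changes in that fit were 0.48 ± 0.147, 0.48 ± 0.145 and -0.47 ± 0.164 SE. The score itself was 4.53 ± 0.41 in ZsGreen-positive ILC2 and 3.49 ± 0.51 in ZsGreen-negative ILC2 (mean log2(CPM + 1), SD, n = 3 and 5). Whether the structural transcripts had a part in the differences of Dusp4, Dusp6 and Dusp10 was not tested beyond this.

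**Figure D2:**
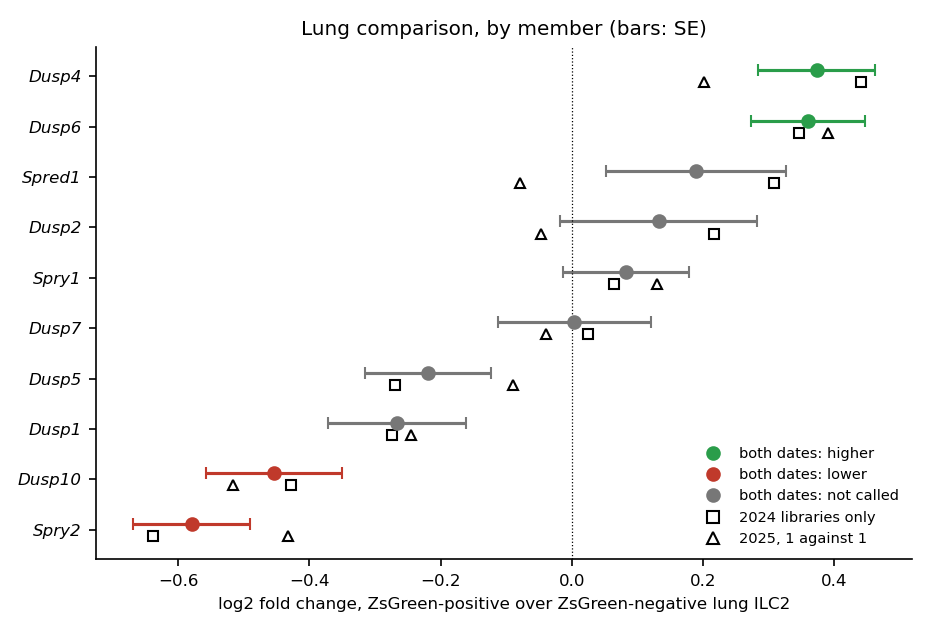
Log2 fold change of each member in ZsGreen-positive over ZsGreen-negative lung ILC2, from edgeR on 3 and 5 libraries with batch as a term; circles with bars are the estimates with their SE, coloured where the adjusted p was under 0.05, squares are the 2024 libraries alone and triangles the single pair of 2025. Spry2 (-0.58) and Dusp10 (-0.45) lie below 0, Dusp6 (0.36) and Dusp4 (0.37) above it, and the other 6 members did not pass the test.

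The other 6 members did not pass the test in the lung, and their groups overlapped. Dusp1, the classic inducible nuclear phosphatase of p38 and JNK, had 737, 574 and 687 CPM in ZsGreen-positive ILC2, against 812, 904, 677, 786 and 806 CPM in ZsGreen-negative ILC2. Its lowest value was in ZsGreen-positive library 2, and only ZsGreen-negative library 3 reached into the range of the other group. The log2 fold change was -0.27 ± 0.11 SE with a 95% interval of -0.47 to -0.06 that is not adjusted for the number of genes, while its edgeR BH-adjusted p was 0.185. Dusp5, which acts on ERK in the nucleus, had 731, 804 and 874 CPM in ZsGreen-positive ILC2, against 914, 818, 937, 1039 and 921 CPM in ZsGreen-negative ILC2. Here too the ranges met, between ZsGreen-positive library 3 and ZsGreen-negative library 2. The log2 fold change of Dusp5 was -0.22 ± 0.10 SE with a 95% interval of -0.41 to -0.03, likewise not adjusted for the number of genes (edgeR BH-adjusted p = 0.236).

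Dusp2, a nuclear phosphatase known as PAC-1 that is induced on activation of lymphocytes, had 15.7, 21.9 and 17.9 CPM in ZsGreen-positive ILC2, against 14.96, 17.7, 15.3, 16.5 and 18.3 CPM in ZsGreen-negative ILC2. Dusp7, the cytoplasmic relative of Dusp6, had 28.7, 23.4 and 31.3 CPM in ZsGreen-positive ILC2, against 25.6, 27.8, 24.3, 25.2 and 31.8 CPM in ZsGreen-negative ILC2. Spred1, which brings the Ras inactivator neurofibromin to the membrane, had 31.6, 28.7 and 22.8 CPM in ZsGreen-positive ILC2, against 27.5, 28.0, 22.6, 19.6 and 23.8 CPM in ZsGreen-negative ILC2. For all 3 genes the spread within a group was wider than the distance between the group means. The 95% intervals of the log2 fold change were -0.16 to 0.43 for Dusp2, -0.22 to 0.23 for Dusp7 and -0.08 to 0.46 for Spred1, so changes of these sizes were not resolved at this number of libraries.

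**Figure D3:**
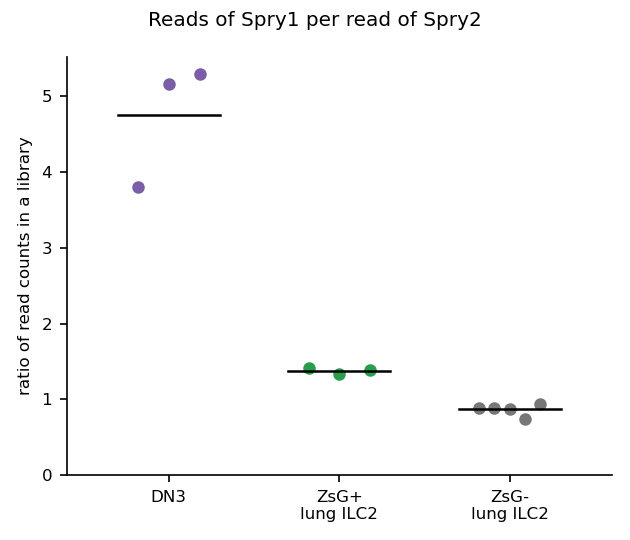
Reads of Spry1 per read of Spry2 within each library, not scaled for length, for DN3 (n = 3), ZsGreen-positive (n = 3) and ZsGreen-negative lung ILC2 (n = 5); points are libraries and bars are means. The ZsGreen-positive libraries lie at 1.34 to 1.42, above the ZsGreen-negative libraries at 0.746 to 0.937, and the DN3 libraries lie above both.

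In DN3, 8 of the 10 members lay below ZsGreen-negative ILC2 and 2, Dusp2 and Spred1, above. The same 8 and 2 stood in the same directions against ZsGreen-positive ILC2, a comparison that uses the same DN3 libraries. All 10 members passed the test and did not overlap in either comparison, in a setting where 76.7% of 15132 genes passed it against ZsGreen-negative ILC2 (35.5% higher and 41.2% lower, with no overlap for 73.9%) and 75.1% against ZsGreen-positive ILC2 (34.8% higher and 40.3% lower, with no overlap for 78.2%). The count is thus read by the sizes. At least 4 log2 units lower, a size chosen after the values were seen, were 5 members against ZsGreen-negative ILC2 and 6 against ZsGreen-positive ILC2, beside 9.39% and 9.87% of all genes. The members' median log2 fold change was -4.16 and -4.38 in these comparisons, where the median of all genes was -0.10 and -0.08. All calls and directions of the 10 members stayed in 15 alternatives against ZsGreen-negative and 13 against ZsGreen-positive ILC2.

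Spry2 stood lowest, with 3.51, 1.93 and 1.98 CPM in the DN3 libraries (25, 18 and 17 reads), against means of 211 ± 10.4 CPM in ZsGreen-positive and 320 ± 30.7 CPM in ZsGreen-negative ILC2 (SD). It was 87.2-fold lower than in ZsGreen-positive and 131.8-fold lower than in ZsGreen-negative ILC2 (log2 fold changes -6.45 ± 0.16 and -7.04 ± 0.16 SE, edgeR BH-adjusted p = 2.97e-19 and 3.81e-20). Spry1 kept more of its level, at 13.3, 9.97 and 10.5 CPM in DN3, against means of 292 ± 23.1 CPM in ZsGreen-positive and 276 ± 31.0 CPM in ZsGreen-negative ILC2. It was 26.1-fold and 24.7-fold lower (edgeR BH-adjusted p = 2.91e-18 and 1.67e-18). The DN3 libraries held 3.80, 5.17 and 5.29 Spry1 reads per Spry2 read, above all lung libraries.

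Among the nuclear phosphatases, Dusp1 had 14.5, 12.3 and 12.9 CPM in DN3, against means of 666 ± 83.3 CPM in ZsGreen-positive and 797 ± 81.0 CPM in ZsGreen-negative ILC2. Dusp5 had 30.5, 32.7 and 26.3 CPM in DN3, against 803 ± 71.8 and 926 ± 78.7 CPM, and Dusp4 had 9.56, 14.4 and 12.8 CPM, against 207 ± 18.9 and 160.4 ± 15.4 CPM. For all 3 the DN3 libraries lay close together and far below the lowest lung library. Against ZsGreen-negative ILC2 the folds were 60.4 lower for Dusp1, 31.0 lower for Dusp5 and 12.97 lower for Dusp4 (edgeR BH-adjusted p = 7.49e-20, 1.94e-19 and 5.6e-17). Against ZsGreen-positive ILC2 they were 50.5, 26.9 and 16.7 lower (edgeR BH-adjusted p = 2.9e-19, 7.37e-19 and 3.16e-17).

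Dusp2 went the other way, with 51.9, 47.6 and 43.7 CPM in DN3, against means of 18.5 ± 3.14 CPM in ZsGreen-positive and 16.5 ± 1.45 CPM in ZsGreen-negative ILC2. It was 2.59-fold and 2.85-fold higher in DN3 (log2 fold changes 1.37 ± 0.14 and 1.51 ± 0.12 SE, edgeR BH-adjusted p = 5.95e-09 and 1.3e-10). Of the 4 nuclear inducible phosphatases it was therefore the highest in DN3 and the lowest in both lung groups, per kilobase as well as in CPM.

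The cytoplasmic ERK phosphatases parted. Dusp6 had 5.20, 3.32 and 3.03 CPM in DN3, against 123 ± 9.81 CPM in ZsGreen-positive and 95.8 ± 6.26 CPM in ZsGreen-negative ILC2, and was 32.5-fold and 25.3-fold lower (edgeR BH-adjusted p = 4.34e-18 and 6.66e-18). Dusp7 had 19.7, 18.2 and 21.4 CPM in DN3, against 27.8 ± 4.03 and 27.0 ± 3.02 CPM, and was 1.42-fold and 1.38-fold lower (edgeR BH-adjusted p = 0.00262 and 0.00276). In DN3 reads of Dusp7 outnumbered those of Dusp6, while in each lung library Dusp6 had 2.96 to 4.80 times as many reads as Dusp7.

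Dusp10 had 40.6, 40.2 and 46.8 CPM in DN3, against 121 ± 0.521 CPM in ZsGreen-positive and 166 ± 22.6 CPM in ZsGreen-negative ILC2, 2.85-fold and 3.89-fold lower (edgeR BH-adjusted p = 9.54e-11 and 2.86e-13). Spred1 had 41.3, 37.8 and 33.5 CPM in DN3, against 27.7 ± 4.51 and 24.3 ± 3.50 CPM. Its DN3 libraries all lay above the lung libraries, 1.37-fold and 1.54-fold higher (edgeR BH-adjusted p = 0.00793 and 0.00019). The levels of Dusp1, Dusp5, Dusp10 and Spry1 in any group could hold reads of genes that overlap them, since use of the strand in counting is not given in the sources used here. Ergic1, on the strand opposite to Dusp1, had 131 to 135 CPM in DN3, 59.2 to 62.3 CPM in ZsGreen-positive and 53.8 to 70.3 CPM in ZsGreen-negative ILC2. In DN3 it was far above Dusp1 itself, so the DN3 level of Dusp1 and its fold difference are the most exposed if counting ignored the strand.

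Genes that rise with cell handling differed between the tissues in the same direction as most members. A list of 22 dissociation and handling genes, which leaves out the 10 members, summed to 3679 to 3992 CPM in DN3, 23130 to 25809 CPM in ZsGreen-positive and 25844 to 32207 CPM in ZsGreen-negative ILC2. Of these 22 genes, 3 were higher and 17 lower in DN3 over ZsGreen-negative ILC2, with a median log2 fold change of -4.79. In either direction 90.9% were called, beside 76.7% of all genes tested, of which 41.2% were lower. Atf3 had no count in any DN3 library. The part of handling in the lower member levels of DN3 was not tested. In the lung comparison 4 of the 22 were called lower in ZsGreen-positive ILC2, among them Fosb and Atf3, where 2.29% of all genes tested were called lower.

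The genes most like the leading members over the 11 libraries were found by the smallest root mean square distance between mean-centred log2(CPM + 1) profiles, among 8827 genes of at least 10 CPM on average. Btg1 (0.13 log2 units) and Stk17b (0.16) were nearest to Dusp5, Rgs2 (0.15) and Maf (0.17) to Dusp1, and Plekha8 (0.16) and Tmem64 (0.18) to Spry1. Plekha8 had no count in DN3 and means of 20.1 and 21.5 CPM in ZsGreen-positive and ZsGreen-negative ILC2. Its nearness to Spry1 thus depends on the 1 added to the CPM before the log. All 6 genes, like these members, had lower means in DN3 than in both lung groups. Since DN3 libraries were part of the profiles, this follows from the choice and is no further result. Within the lung, about the group means of the 8 libraries, correlations of the 45 member pairs ran from -0.92 (Dusp5 with Spred1) to 0.84 (Dusp1 with Dusp6). They describe libraries that share scaling and batch dates.

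Other genes of the pathway were taken from lists chosen by function. Their counts stand beside the shares of all genes tested that passed. In either direction these were 4.60% in the lung, and in DN3 76.7% against ZsGreen-negative and 75.1% against ZsGreen-positive ILC2. By direction, 41.2% and 40.3% of all genes were lower in DN3 in these 2 comparisons, and 35.5% and 34.8% higher. Of the 13 other MAPK phosphatase, Sprouty and SPRED genes in the table, 11 were tested in the lung and 1 passed, Dusp8, a phosphatase of JNK and p38. It averaged 11.2 ± 2.54 CPM in ZsGreen-positive and 20.0 ± 2.04 CPM in ZsGreen-negative ILC2 (log2 fold change -0.86 ± 0.16 SE, edgeR BH-adjusted p = 0.00365), and no DN3 library had a count of it. With the structural score as a further term its lung call was lost (edgeR BH-adjusted p = 0.133, in a range of 6.8e-05 to 0.133 over 18 alternatives). With a floor of 3 counts over the DN3 libraries, Dusp8 was at least 93.2-fold lower in DN3 than in ZsGreen-positive and at least 167-fold lower than in ZsGreen-negative ILC2. Dusp3, a small phosphatase of ERK and JNK, also had no count in DN3, and was at least 91.8-fold and 83.8-fold lower. Set against ZsGreen-negative ILC2, 1 of the 12 tested was higher in DN3 and 7 were lower. That is 66.7% called, below the share of all genes in either direction, of which 41.2% were lower. Set against ZsGreen-positive ILC2, 1 was higher and 6 were lower (58.3%, again below the share in either direction, with 40.3% of all genes lower). The higher one there was Spred2 (41.7 ± 4.02 CPM in DN3 and 32.4 ± 5.30 CPM in ZsGreen-positive ILC2, edgeR BH-adjusted p = 0.0107), whose call was lost without ZsGreen-positive library 3 (0.0579) or DN3 library 1 (0.0565).

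Of 25 core genes of the Ras-Raf-MEK-ERK cascade, 2 passed in the lung. Of these Gab2, an adaptor upstream of Ras, averaged 8.67 ± 2.42 CPM in ZsGreen-positive and 3.95 ± 0.906 CPM in ZsGreen-negative ILC2 (log2 fold change 1.16 ± 0.26 SE, edgeR BH-adjusted p = 0.0125). The call was lost without ZsGreen-negative library 5 (0.108) or ZsGreen-positive library 2 or 3 (0.127 and 0.121). Against ZsGreen-negative ILC2, 3 of the 25 were higher and 15 lower in DN3 (72% called), and against ZsGreen-positive ILC2 4 were higher and 15 lower (76%). In either direction both shares lay near those of all genes tested, 76.7% and 75.1%. The 15 lower genes stand beside 41.2% and 40.3% of all genes lower, and the 3 and 4 higher ones beside 35.5% and 34.8%. Rras2, a Ras relative, was the clearest of the higher genes at 161.9 ± 2.95 CPM in DN3, against 18.3 ± 2.17 and 17.8 ± 1.58 CPM in the lung groups. Rasgrp4, a Ras activator, had 1.78 ± 0.688 CPM in DN3 against 225 ± 42.1 and 224 ± 31.0 CPM in the lung groups, and Mras 0.0745 ± 0.0647 CPM against 26.2 ± 2.41 and 29.5 ± 5.00 CPM.

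Of 19 tested genes of the JNK and p38 cascades, 1 passed in the lung. Map3k8, the kinase Tpl2 that feeds MEK, averaged 189 ± 5.99 CPM in ZsGreen-positive and 151 ± 15.4 CPM in ZsGreen-negative ILC2 (log2 fold change 0.32 ± 0.09 SE, edgeR BH-adjusted p = 0.0416). Its call was lost in 11 of 18 alternatives, 7 of them leaving out 1 library (every one but ZsGreen-negative library 3, with adjusted p between 0.066 and 0.167). In DN3, 17 of the 19 were lower and 0 higher than in ZsGreen-negative ILC2 (89.5% called, beside 76.7% of all genes in either direction and 41.2% lower). Against ZsGreen-positive ILC2, 16 were lower and 0 higher (84.2%, beside 75.1% in either direction and 40.3% lower). The lower genes included Mapkapk3, a kinase downstream of p38, at 9.81 ± 0.585 CPM in DN3 against 505 ± 18.7 and 451 ± 22.6 CPM. Of the other brakes on Ras-ERK signalling, 1 of 15 passed in the lung. It was Rasa3, a Ras GTPase-activating protein, with 72.5 ± 9.05 CPM in ZsGreen-positive and 95.1 ± 7.30 CPM in ZsGreen-negative ILC2 (edgeR BH-adjusted p = 0.0131), and its call was lost without ZsGreen-positive library 1 or 2 (0.0901 and 0.0792). In DN3, 4 of 16 were higher and 9 lower in both comparisons (81% called in each, near the shares of all genes in either direction). The 9 lower ones stand beside 41.2% and 40.3% of all genes lower. The higher ones included Rasal1 (31.0 ± 2.21 CPM in DN3 against 0.308 ± 0.249 and 0.341 ± 0.110 CPM) and Cbl, a ubiquitin ligase (543 ± 16.5 against 222 ± 23.5 and 213 ± 31.4 CPM), and the lower ones Dok2 (25.1 ± 0.958 against 168.9 ± 26.1 and 180.1 ± 11.2 CPM).

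**Figure D4:**
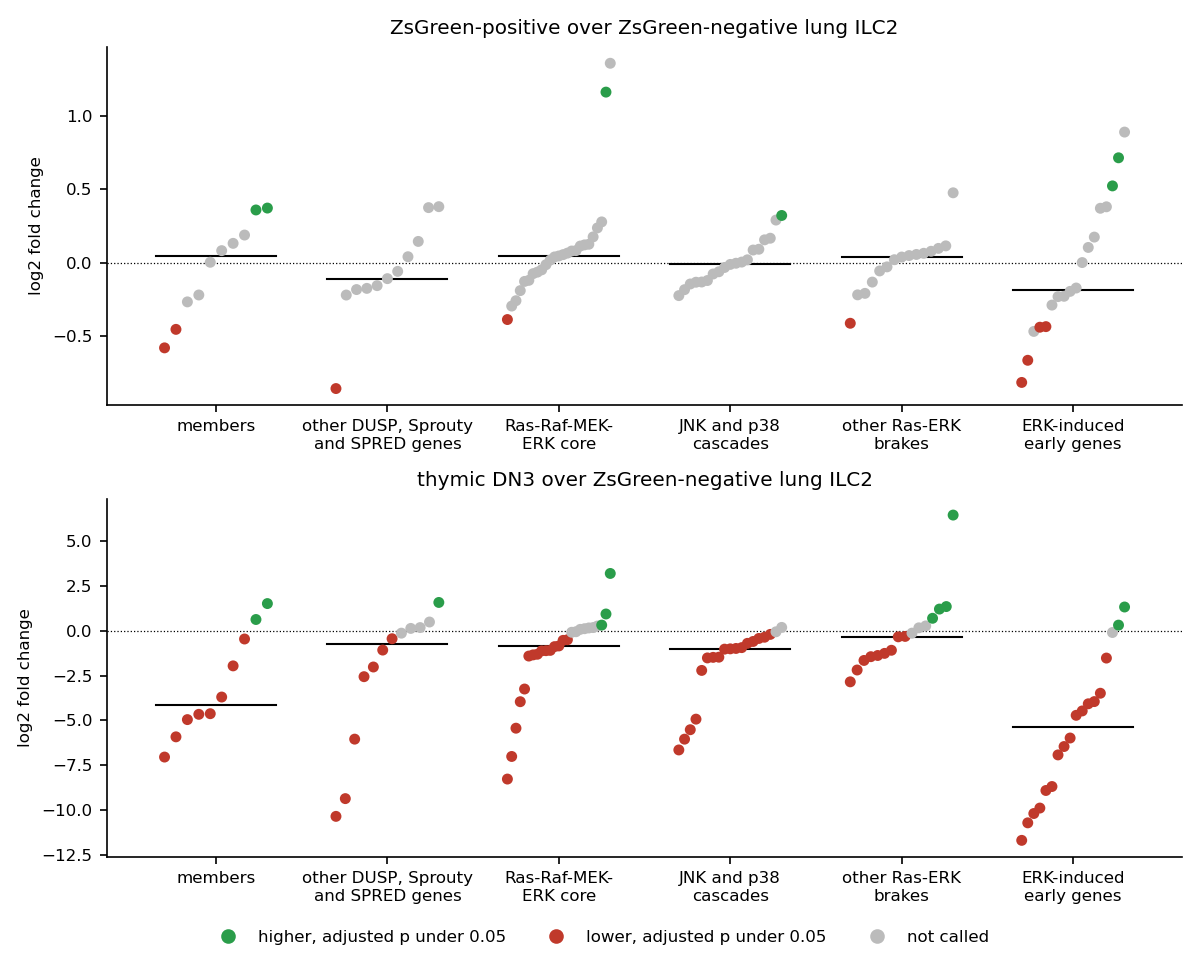
Log2 fold changes of the members and of each pathway list in ZsGreen-positive over ZsGreen-negative lung ILC2 (top) and in DN3 over ZsGreen-negative lung ILC2 (bottom), from edgeR; points are genes, bars are list medians and colour marks adjusted p under 0.05. In the lower panel the members (median -4.16) and the ERK-induced early genes (median -5.35) have the lowest list medians.

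Early genes that ERK induces, 18 of them tested, split in the lung, with 2 higher and 4 lower in ZsGreen-positive ILC2. The transcription factors Egr2 (81.5 ± 22.6 CPM in ZsGreen-positive and 53.3 ± 11.7 CPM in ZsGreen-negative ILC2, edgeR BH-adjusted p = 0.0147) and Etv5 (18.1 ± 1.69 and 10.8 ± 3.30 CPM, edgeR BH-adjusted p = 0.0463) were higher. For Egr2 the groups overlapped, with a lowest ZsGreen-positive value of 63.2 CPM and a highest ZsGreen-negative value of 68.7 CPM. Egr2 lost its call when ZsGreen-negative library 5 (0.104) or ZsGreen-positive library 1 or 3 was left out (0.0903 and 0.0999). Dropping the batch term also ended the call of Egr2, with or without the DN3 libraries in the fit (0.0688 and 0.139). In all, 8 of 18 alternatives did so. Etv5 lost its call without any 1 library other than ZsGreen-negative library 1 (0.0637 to 0.190). Klf4 (456 ± 65.5 CPM in ZsGreen-positive and 722 ± 46.4 CPM in ZsGreen-negative ILC2, edgeR BH-adjusted p = 0.000633) and Phlda1 (102 ± 7.55 and 139 ± 9.32 CPM, edgeR BH-adjusted p = 0.0038) were lower. With the structural score as a further term both lost their calls (edgeR BH-adjusted p = 0.11 for Klf4 and 0.553 for Phlda1), and Klf4 also lost it when the DN3 libraries joined the fit and the batch term was dropped (0.0839). Over 18 alternatives the adjusted p lay between 9.34e-11 and 0.11 for Klf4 and between 0.000222 and 0.553 for Phlda1. The structural score likewise ended the lung calls of Gab2, Map3k8, Rasa3, Egr2 and Etv5 (edgeR BH-adjusted p = 0.654, 0.926, 0.11, 0.426 and 0.567). In DN3, 15 of the 18 were lower in both comparisons, with median log2 fold changes of -5.35 against ZsGreen-negative and -5.21 against ZsGreen-positive ILC2. In either direction 94.4% and 88.9% of the list were called, beside 76.7% and 75.1% of all genes. Nr4a1, a receptor induced by antigen receptor signals in T cells, had 15.5 ± 2.27 CPM in DN3 against 5522 ± 574 and 6367 ± 889 CPM in the lung groups, and Fosl2, an AP-1 subunit, 1.42 ± 0.499 CPM against 4265 ± 102 and 4779 ± 457 CPM. Etv5 was higher in DN3 (27.5 ± 1.29 CPM), as it was in ZsGreen-positive over ZsGreen-negative ILC2. Of the 19 genes of this list 6 also stand in the list of handling genes, and those 2 lists are not independent of each other.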

How the data were processed

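The authors deposited whole-number read counts per gene for 11 libraries (57186 entries), with RNA from the PicoPure kit and libraries from the Watchmaker kit per the labels' protocols. The build GRCm39 and DESeq2 are named in the submitters' processing notes. Aligner, annotation and strand setting were not given in the sources used here. No label ties a library to an animal. The p-values therefore rest on spread among libraries that may be technical. All 16 replicate pairs differed by more than sampling noise (chi-square over degrees of freedom 1.72 to 13.4).

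Counts were tested with edgeR 4.0.16 in R 4.3.3 (quasi-likelihood F test, TMM scaling, filterByExpr with a minimum count of 10, BH adjustment over all genes tested). The lung comparison used 8 libraries with batch date as a term, and DN3 were compared with each lung group in a fit of 11 libraries without it. The procedure was tested on simulated data. Alternatives used DESeq2 1.42.0, limma 3.58.1, other scaling, filters and terms, and left out each library. Members and lists were chosen with earlier results of these data known. Named list genes were up to 2 of smallest p per list, comparison and direction, with 5 CPM or more in the group of higher level. Atf3 and Fosb, outside that rule, were chosen after their values were seen. A gene that the rule takes is not reported here. Promoters and exon lengths came from GRCm38 (RefSeq and GENCODE), a build other than that of the counts.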

Additional observations from a re-analysis of the deposited data

How the results depend on the processing

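In comparisons with DN3 all counts of genes and of members stayed within 1.5 times the reported ones. Upper-quartile scaling moved the median log2 fold change of all genes from -0.10 to 0.01 in DN3 against ZsGreen-negative ILC2. In the lung, Spry2 passed in all 18 alternatives, and Dusp4, Dusp6 and Dusp10 in 14, 11 and 11 of them. Without a filter on low counts 621 genes were higher. In September 2024 alone 145 genes were higher and 153 lower, with 1 member each way. With the structural score as a term 15 genes were higher and 45 lower, with 0 members higher and 1 lower by edgeR (2 and 2 at an unadjusted p under 0.05). Lung libraries of equal replicate number did not deviate together (correlations of deviations from the group means 0.069, -0.136 and -0.0453). The libraries numbered 3 have different dates, and other pairings of libraries were not examined, so a pairing of the samples is not excluded. With a replicate block in place of the batch term 130 genes were higher and 109 lower, with 0 members higher and 1 lower by edgeR (2 and 2 at an unadjusted p under 0.05). The block also ended the lung calls of Dusp8 and Phlda1 (adjusted p = 0.0561 and 0.0749). The cause of these lower counts was not tested. Leaving out 1 library gave 148 to 471 genes higher and 147 to 343 lower, with 0 to 2 members higher and 1 to 2 lower. Values near 0 changed sign for members that did not pass. The log2 fold change of Dusp7 was -0.00369 with limma voom, -0.0124 and -0.00148 without ZsGreen-negative library 3 or 4, and between -0.0873 and 0.0736 over all single libraries left out. That of Spry1 was -0.00543 with the block and -0.12 with the structural score, and that of Dusp2 lay between -0.0383 and 0.24 with single libraries left out. Members under 5 CPM in DN3, such as Spry2 with 17 to 25 reads, carry the widest counting error.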
